A study of Mus musculus with 12 samples.

Results

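Retinoic acid, the hormone-like derivative of vitamin A, is made inside cells and read by nuclear receptors, and 7 genes of this pathway were followed here in cultured mouse cardiomyocytes. They were Aldh1a1 and Aldh1a2, which encode enzymes that make retinoic acid, Dhrs3, which encodes an enzyme that draws on the same precursor, and the receptor genes Rara, Rarb, Rxra and Rxrg. The genes were chosen by name as retinoid enzymes and receptors, with Aldh1a1 among them because it showed one of the largest reductions of all genes with the oncostatin M proteins. They are 7 of the 22915 genes of the deposited table, and all 7 passed the filter on low values that left 13184 genes for testing. Because the comparisons of mOSM and hlOSM with PBS chose the set, the values of the 7 genes in them are given as a description without a test.

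Heart muscle cells of adult male C57/Bl6 mice, 12 weeks of age, were kept in serum-free medium in normoxia for 24 h with a recombinant protein or an equal volume of sterile PBS, the solvent. The proteins were murine leukemia inhibitory factor (mLIF), which signals through the LIF receptor (LIFR), murine oncostatin M (mOSM), which in mice binds only the oncostatin M receptor (OSMR), and human-like oncostatin M (hlOSM), in which the AB loop is human and which signals through both. The labels give 25 ng/mL for each protein, whereas the study's methods state a lower concentration. Each condition has 3 libraries, 12 in all, and nothing states whether they came from separate isolations of cells, so that the p-values measure only the spread between these libraries.

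Retinol, the alcohol form of vitamin A, is oxidized to retinaldehyde by retinol dehydrogenases such as RDH10, and retinaldehyde is oxidized to retinoic acid by the retinaldehyde dehydrogenases ALDH1A1, ALDH1A2 and ALDH1A3. DHRS3 turns retinaldehyde back into retinol, and the CYP26 enzymes break retinoic acid down. The receptors RARα, RARβ and RARγ bind retinoic acid and pair with a retinoid X receptor (RXRα, RXRβ or RXRγ) on direct repeats of a short DNA sequence. In the heart, ALDH1A2 is known as the enzyme that supplies retinoic acid to the forming chambers and to the epicardium, and RXRα as the receptor needed for growth of the ventricular wall.

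Aldh1a1 and Aldh1a2 differed from PBS in opposite directions with the oncostatin M proteins, and their annotated start regions differ in makeup, which is why both are shown. The sequences are the 250 bases before the RefSeq start site nearest to the start of the gene in the table, on GRCm38.p6, 5′ to 3′ on the plus strand, at chr19:20492333-20492582 for Aldh1a1 and chr9:71215539-71215788 for Aldh1a2. No base is in capitals because none of the searched motifs was found in them.
Aldh1a1: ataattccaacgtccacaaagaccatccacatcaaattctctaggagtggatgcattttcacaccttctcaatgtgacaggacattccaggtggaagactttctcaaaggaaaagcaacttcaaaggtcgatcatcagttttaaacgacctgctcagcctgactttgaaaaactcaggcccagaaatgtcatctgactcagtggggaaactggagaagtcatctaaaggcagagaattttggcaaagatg
Aldh1a2: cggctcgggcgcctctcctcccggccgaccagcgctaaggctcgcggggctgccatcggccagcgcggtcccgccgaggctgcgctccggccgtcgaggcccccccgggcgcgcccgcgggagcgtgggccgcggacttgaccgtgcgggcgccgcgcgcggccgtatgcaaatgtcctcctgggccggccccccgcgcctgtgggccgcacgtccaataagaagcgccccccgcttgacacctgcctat
The Aldh1a1 stretch holds 3 CpG dinucleotides and 42.8% G or C, and the Aldh1a2 stretch holds 40 CpG dinucleotides and 77.6% G or C. Neither overlaps an annotated exon.

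RefSeq lists 15 such windows for the 7 genes, and all 7 genes had at least 1. They were searched on both strands for direct repeats of a unit with 1, 2 or 5 bases between, which RAR and RXR pairs are known to bind, and for TTCNNNGAA, the motif of STAT proteins. The unit was AGGTCA, its form GGGTCA, the form AGTTCA or the form GGTTCA, in any pairing. Among these windows, a direct repeat was found in that of Rarb alone, with 5 bases between. It covers 17 bases on the minus strand at chr14:16575513-16575529, from 53 to 37 bases before the RefSeq start at position 16575476, within the 5′ UTR of 2 longer annotated Rarb transcripts, and is printed with its units in capitals.
Rarb: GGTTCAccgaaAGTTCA
The same 17 bases hold a match to TTCNNNGAA that overlaps the repeat, from 51 to 43 bases before the start. Among all 32851 RefSeq windows of this length, 29 (0.0883%) held a repeat with 5 bases between, 140 (0.426%) held any of the 3 repeats, and 2306 (7.02%) held TTCNNNGAA. The only other match among the 7 genes was TTCNNNGAA in a Rara window, from 197 to 189 bases before a start at chr11 position 98939711. A match of letters is a description and not a bound site.

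Aldh1a1 (ENSMUSG00000053279, chr19:20492715-20643465, plus strand, mm10) was highest in PBS, where the normalized counts were 214, 206 and 258. They were 165, 163 and 178 with mLIF, 31, 26 and 31 under mOSM, and 31, 39 and 27 under hlOSM. No library of any treatment reached the lowest PBS library, and the mOSM and hlOSM libraries lay far below those of mLIF. The mean of 29.3 ± 2.89 (SD, n = 3) with mOSM compared with 226 ± 28.0 (SD, n = 3) in PBS, a difference of −2.90 ± 0.13 (SE) on the log2(normalized count + 1) scale, or 7.47-fold lower. With hlOSM the difference was −2.78 ± 0.13 (SE), or 6.85-fold lower. In bulk RNA, fewer cells that express a gene and less of its RNA in each cell cannot be told apart.

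Aldh1a2 (ENSMUSG00000013584, chr9:71215789-71296243, plus strand) was higher with both oncostatin M proteins. Its normalized counts were 205, 206 and 171 in PBS, 204, 223 and 185 with mLIF, 368, 359 and 515 under mOSM, and 374, 344 and 398 under hlOSM. The mLIF libraries overlapped with PBS, whereas every mOSM and hlOSM library lay above all PBS and mLIF libraries. The difference from PBS was 1.07 ± 0.11 (SE) on the log2 scale with mOSM and 0.94 ± 0.11 (SE) with hlOSM, or 2.11-fold and 1.92-fold higher.

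Dhrs3 (ENSMUSG00000066026, chr4:144892827-144928209, plus strand), whose product reduces retinaldehyde to retinol and which is itself known to be induced by retinoic acid, differed little. Its normalized counts were 334, 325 and 306 in PBS, 325, 274 and 335 with mLIF, 261, 272 and 301 under mOSM, and 237, 273 and 244 under hlOSM. The mOSM and hlOSM libraries lay below all PBS libraries, by −0.21 ± 0.08 (SE) and −0.36 ± 0.08 (SE) on the log2 scale, and the mLIF libraries overlapped with PBS.

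**Figure D1:**
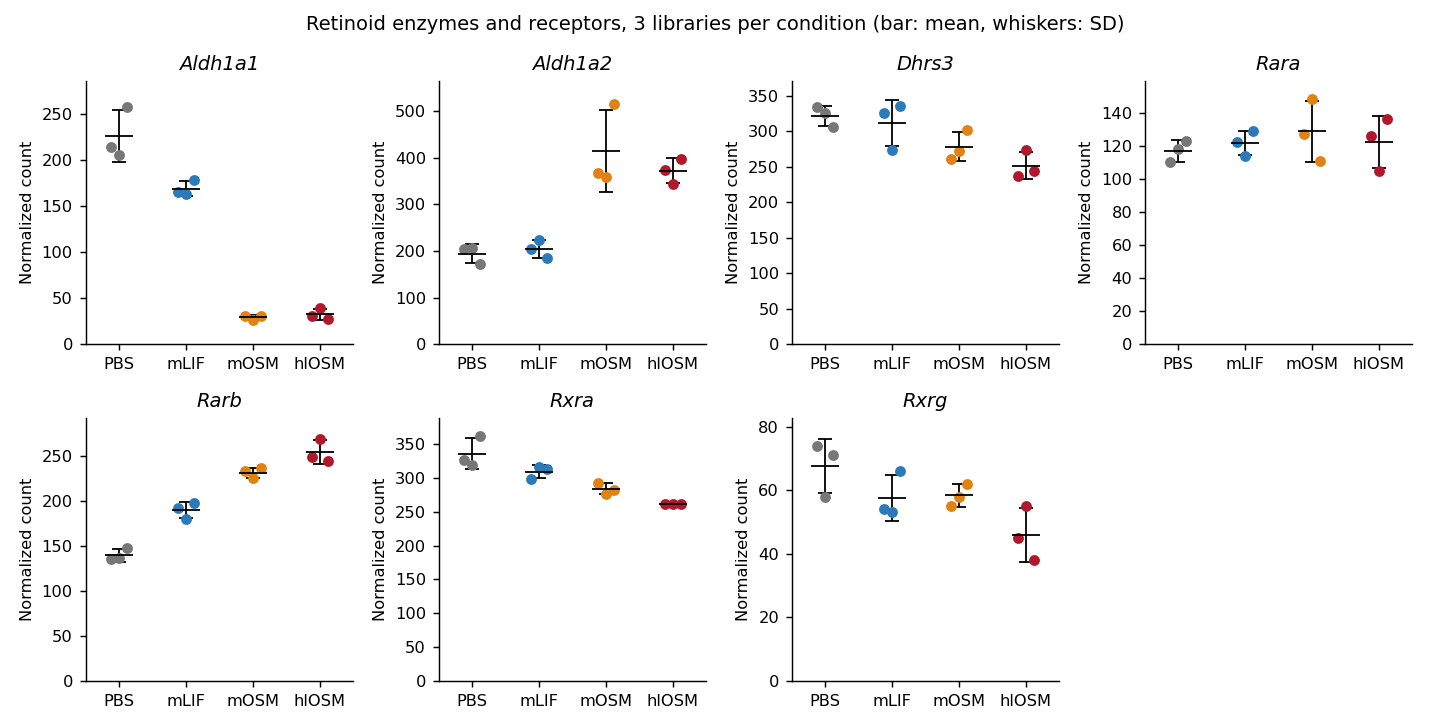
Normalized count of each of the 7 genes in the 12 libraries (vertical axes, linear and starting at 0) by condition, with 3 points per condition, a bar at their mean and whiskers of 1 SD. Aldh1a1 sits between 26 and 39 with mOSM and hlOSM against 206 to 258 in PBS, Aldh1a2 and Rarb are higher with the oncostatin M proteins, and the Rara conditions overlap.

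Of the receptors that bind retinoic acid, Rarb differed between conditions and Rara did not separate them. The normalized counts of Rarb (ENSMUSG00000017491, chr14:16430839-16819156, minus strand) were 135, 136 and 148 in PBS, 192, 180 and 198 with mLIF, 233, 225 and 236 under mOSM, and 249, 269 and 244 under hlOSM. The 4 conditions did not overlap and lay in the order PBS, mLIF, mOSM and hlOSM. The differences from PBS with mOSM and hlOSM were 0.72 ± 0.07 (SE) and 0.86 ± 0.07 (SE) on the log2 scale, or 1.65-fold and 1.81-fold higher. Rara (ENSMUSG00000037992, chr11:98927818-98974942, plus strand) had normalized counts of 110, 118 and 123 in PBS, 122, 114 and 129 with mLIF, 127, 148 and 111 under mOSM, and 126, 105 and 136 under hlOSM. Every pair of conditions overlapped for Rara, with differences from PBS of 0.13 ± 0.11 (SE) with mOSM and 0.06 ± 0.11 (SE) with hlOSM.

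Of the exonic bases of Rarb, 38.4% are overlapped on the opposite strand by Top2b and Gm48162. The kit used marks strand, but the strand setting of the counting is not given in the sources used here, and reads lying on several genes were excluded. Without strand, reads from such a stretch cannot be assigned, so that the level of Rarb is uncertain. Top2b, which encodes a DNA topoisomerase, had between 938 and 977 normalized counts in PBS, 887 and 922 with mLIF, 822 and 934 under mOSM, and 849 and 897 under hlOSM. All treated libraries of Top2b lay below those of PBS. Its part in the Rarb values was not tested.

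Rxra and Rxrg were both lower with hlOSM than in PBS. Rxra (ENSMUSG00000015846, chr2:27676440-27762957, plus strand) had normalized counts of 326, 319 and 362 in PBS, 298, 316 and 313 with mLIF, 293, 277 and 282 under mOSM, and 262, 262 and 261 under hlOSM. The conditions again did not overlap, with PBS highest and hlOSM lowest, and the differences from PBS were −0.24 ± 0.06 (SE) on the log2 scale with mOSM and −0.36 ± 0.06 (SE) with hlOSM. Rxrg (ENSMUSG00000015843, chr1:167598384-167639623, plus strand), the RXR gene known from skeletal and heart muscle, had normalized counts of 74, 58 and 71 in PBS, 54, 53 and 66 with mLIF, 55, 58 and 62 under mOSM, and 45, 55 and 38 under hlOSM. The hlOSM libraries of Rxrg lay below all PBS libraries, by −0.56 ± 0.14 (SE), whereas mOSM overlapped with PBS and differed by −0.20 ± 0.14 (SE).

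The comparison of mLIF with PBS, which asks what the LIF receptor alone does, was not used to choose the set, although it shares the PBS libraries with those that were. With limma across all genes tested, 721 genes (5.47%) were raised and 586 (4.44%) were lowered by mLIF at an adjusted p under 0.05. Among the 7 genes, 1 was raised and 1 was lowered. Rarb rose by 0.44 ± 0.07 (SE) on the log2 scale, 1.36-fold, with an adjusted p of 4.99e-04 from limma, and was past the threshold under 20 of 20 alternatives. Aldh1a1 fell by 0.41 ± 0.13 (SE), 1.33-fold, with an adjusted p of 0.0411 from limma. The fall of Aldh1a1 did not pass the threshold without PBS replicate 1 (adjusted p from limma 0.0594), without PBS replicate 3 (0.213), without mLIF replicate 1 (0.115), without mLIF replicate 2 (0.119) or without mLIF replicate 3 (0.0875). The call thus depended on 5 of the 6 libraries compared.

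The other 5 genes did not pass the threshold with mLIF. The log2 differences were 0.07 for Aldh1a2 (95% interval −0.15 to 0.30), −0.05 for Dhrs3 (−0.22 to 0.11), 0.06 for Rara (−0.17 to 0.28), −0.12 for Rxra (−0.25 to 0.01) and −0.23 for Rxrg (−0.52 to 0.07), with adjusted p from limma between 0.250 and 0.792. All 3 mLIF libraries of Rxra lay below the lowest PBS library, by a margin that the test did not separate from the spread.

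**Figure D2:**
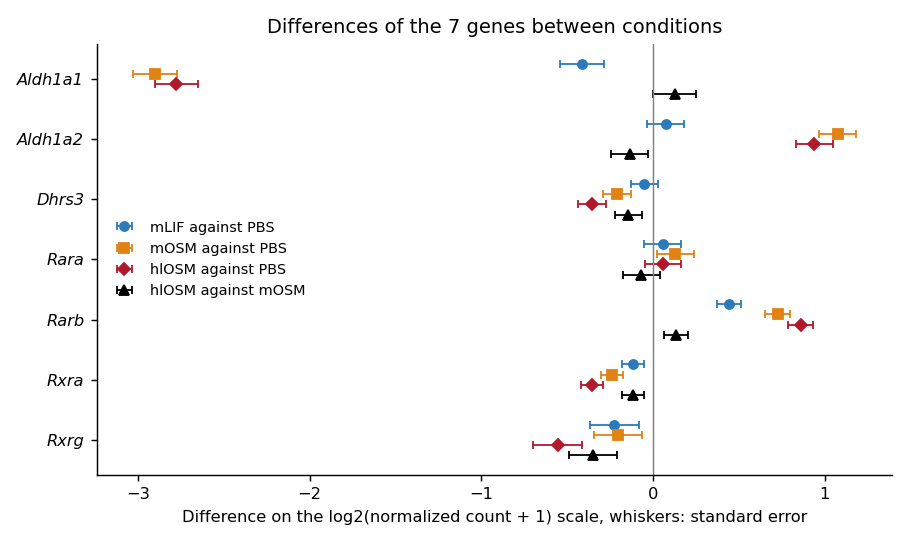
Difference of each of the 7 genes between conditions on the log2(normalized count + 1) scale (horizontal axis), with whiskers of 1 standard error from the limma fit of all 12 libraries and 0 marked by a line. Aldh1a1 lies at −2.90 with mOSM and −2.78 with hlOSM, Aldh1a2 and Rarb lie to the right of 0 with both, and the differences of hlOSM from mOSM lie between −0.35 and 0.13.

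The effect of adding LIF receptor signaling to that of the oncostatin M receptor was sought in hlOSM against mOSM. This comparison uses no PBS library and was not itself used to choose the set. The proteins also differ in the AB loop, and whether they act equally on OSMR was not tested. None of the 7 genes passed the threshold with limma (0 of 7, and 1 at an unadjusted p under 0.05). Of all genes tested, 14 of 13184 (0.106%) were called. The log2 differences were 0.12 for Aldh1a1 (95% interval −0.14 to 0.39), −0.14 for Aldh1a2 (−0.36 to 0.09), −0.15 for Dhrs3 (−0.31 to 0.02) and −0.07 for Rara (−0.29 to 0.15). For the remaining receptors they were 0.13 for Rarb (−0.01 to 0.28), −0.12 for Rxra (−0.25 to 0.01) and −0.35 for Rxrg (−0.65 to −0.06), where Rxrg was the gene with the unadjusted p under 0.05. The adjusted p from limma lay between 0.547 and 0.934. A difference between hlOSM and mOSM was thus not detectable with 3 libraries per condition, which does not show that the proteins act alike.

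Whether the hlOSM step from mOSM differed from the mLIF step from PBS was tested as an interaction in the same limma fit, which uses the PBS, mOSM and hlOSM libraries on which Aldh1a1 was chosen, and in which 22 of 13184 genes (0.167%) were called. None of the 7 genes was called (0 of 7, and 2 at an unadjusted p under 0.05). The interaction was 0.54 ± 0.18 (SE) on the log2 scale for Aldh1a1 (adjusted p from limma 0.232) and −0.31 ± 0.10 (SE) for Rarb (adjusted p from limma 0.229), and for the other 5 genes the adjusted p lay between 0.624 and 1.

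Levels of different genes were compared only per kb of exon, as the normalized count divided by the length of all annotated exons. On this scale the 3 retinaldehyde dehydrogenase genes Aldh1a1, Aldh1a2 and Aldh1a3 added up to 132 ± 3.16 (SD, n = 3) in PBS, 125 ± 7.01 with mLIF, 204 ± 37.9 under mOSM and 185 ± 12.4 under hlOSM. The sum per kb was thus higher with the oncostatin M proteins, without overlap with PBS or mLIF. The size of this rise depends on the exon lengths, since dividing by them gives Aldh1a1 less weight than the shorter Aldh1a2. Aldh1a1 held 34.6% ± 5.15 (SD, n = 3) of the sum in PBS, 27.3% ± 2.78 with mLIF, 2.95% ± 0.440 under mOSM and 3.58% ± 0.921 under hlOSM. Aldh1a2 held 64.6% ± 5.21 in PBS and 71.7% ± 2.74 with mLIF, and 89.2% ± 2.16 and 88.7% ± 0.536 with mOSM and hlOSM, so that it was the most abundant of the 3 per kb in all 12 libraries. In PBS this order turns on the exon length, 4937 bases for Aldh1a1 and 2264 for Aldh1a2, since the mean normalized counts were 226 and 194. Aldh1a3 held 0.764% ± 0.106 in PBS, 0.977% ± 0.0650 with mLIF, 7.82% ± 1.85 under mOSM and 7.74% ± 0.397 under hlOSM, more than Aldh1a1 in each of the last 2 conditions.

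The RAR genes Rara, Rarb and Rarg added up to 64.7 ± 4.50 (SD, n = 3) normalized counts per kb in PBS, 74.5 ± 3.45 with mLIF, 85.9 ± 2.77 under mOSM and 85.7 ± 0.241 under hlOSM. Rarb held 41.1% ± 0.910 of this sum in PBS, close to Rara with 41.5% ± 1.09. The share of Rarb was 48.4% ± 0.199 with mLIF, 51.2% ± 2.85 under mOSM and 56.3% ± 3.09 under hlOSM. The level of Rarb is uncertain because other genes overlap its exons, so that this sum and these shares are uncertain too. The RXR genes Rxra, Rxrb and Rxrg added up to 136 ± 10.1 in PBS, 128 ± 6.05 with mLIF, 122 ± 1.32 under mOSM and 108 ± 2.05 under hlOSM, and Rxra held between 42.5% and 45.2% of the sum on average in every condition.

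**Figure D3:**
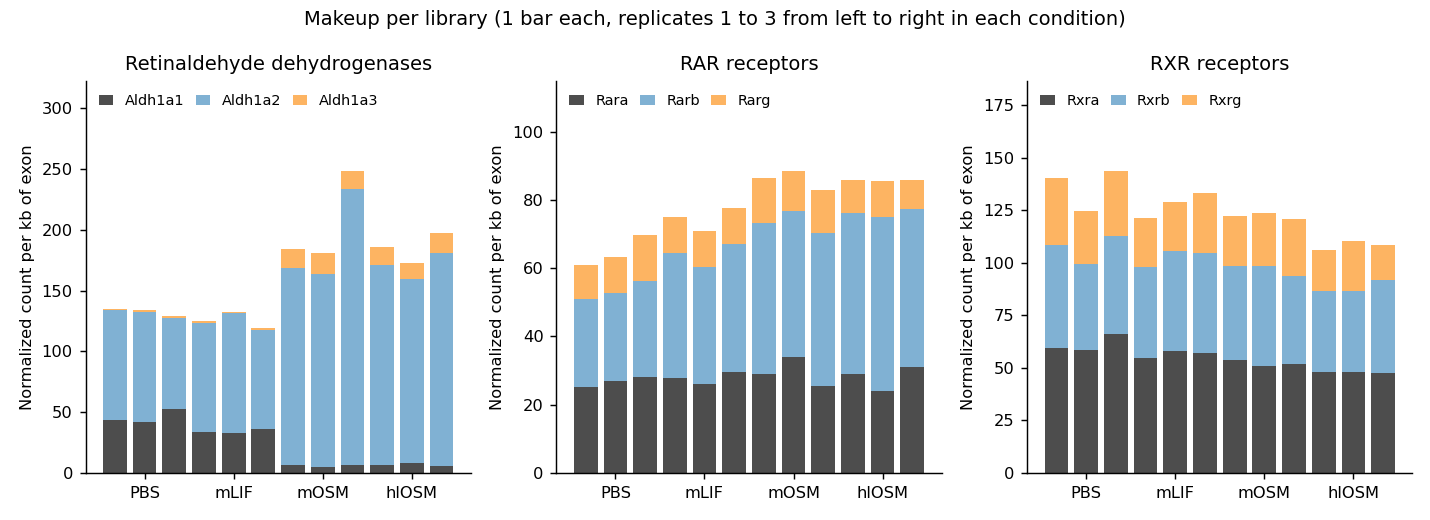
Stacked normalized count per kb of exon (vertical axes, starting at 0) of the retinaldehyde dehydrogenase, RAR and RXR genes, with 1 bar for each of the 12 libraries and replicates 1 to 3 from left to right. Aldh1a1 shrinks to 2.95% and 3.58% of its sum with mOSM and hlOSM while Aldh1a2 grows. The share of Rarb, whose level is uncertain, is largest with hlOSM.

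The rest of the pathway was read from a list of 93 genes, of which 82 are in the table and 57 passed the filter. It covers ligand synthesis, uptake and binding, storage and release, breakdown, receptors, partner receptors, coregulators and genes known to respond to retinoic acid. In the comparison of mOSM with PBS, limma called 16 of the 57 as raised (28.1%) and 15 as lowered (26.3%), where 15.4% of all genes were raised and 15.8% were lowered. With hlOSM, 15 were raised (26.3%) and 18 were lowered (31.6%), against 18.2% and 19.8% of all genes. The median log2 difference of the 57 genes was −0.01 with mOSM and −0.09 with hlOSM, and that of all genes tested lay within 0.01 of 0. These comparisons share the PBS libraries. Aldh1a3, Cyp26b1, Rdh5 and Vdr passed the filter only through the mOSM and hlOSM libraries, which favours a difference in that direction, and their differences from PBS with these proteins are given without a test. Among the other 53 genes, 12 were raised by mOSM and 11 by hlOSM, where 15.4% and 18.2% of all genes were raised. These counts still include Rdh12 and Rarres2, for which no PBS library reached the filter value of 10, which favours a rise as well. The shares of 28.1% and 26.3% above include Aldh1a3, Cyp26b1, Rdh5 and Vdr. The list was drawn up with earlier results of these data known. Its shares, and those of its parts below, thus describe the list and are no independent sign of an excess.

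Of the 10 ligand synthesis genes that passed the filter without the mOSM and hlOSM libraries, 4 (Rdh10, Rdh11, Rdh12 and Rdh13) were raised by both proteins. Dhrs7c and Dhrs4 were lowered by both, and Dhrs7 was lowered by hlOSM. For comparison, mOSM raised 15.4% and lowered 15.8% of all genes, and hlOSM raised 18.2% and lowered 19.8%. No PBS library of Rdh12 reached the filter value. The list also holds enzymes known to work in the reverse direction, so that its count does not say that synthesis rose. Aldh1a3, which makes retinoic acid like Aldh1a1, had normalized counts of 4, 5 and 5 in PBS, 6, 6 and 5 with mLIF, 71, 78 and 66 under mOSM, and 68, 58 and 73 under hlOSM. It was near the bottom of the scale in PBS and mLIF, and the differences from PBS were 3.68 ± 0.19 (SE) on the log2 scale with mOSM and 3.57 ± 0.19 (SE) with hlOSM.

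Rdh10, which carries out the first oxidation of retinol, had normalized counts of 19, 16 and 28 in PBS, 23, 31 and 41 with mLIF, 133, 163 and 87 under mOSM, and 137, 100 and 94 under hlOSM. It rose by 2.54 ± 0.22 (SE) on the log2 scale with mOSM (adjusted p from limma 1.24e-08) and by 2.36 ± 0.22 (SE) with hlOSM (adjusted p 2.47e-08). Rdh12 and Rdh11 lie close to each other on chromosome 12 and encode enzymes known mainly for reducing retinaldehyde, the reverse of the step to retinoic acid. Rdh12 rose from between 3 and 9 normalized counts in PBS to between 40 and 74 with the oncostatin M proteins. The difference from PBS was 2.92 ± 0.31 (SE) with mOSM and 3.00 ± 0.31 (SE) with hlOSM on the log2 scale, given without a test. No PBS library of Rdh12 reached the filter value of 10, so that it passed only through treated libraries, which favours a rise. Rdh11 rose from between 55 and 61 to between 94 and 116, by 0.88 ± 0.10 (SE) with mOSM and 0.80 ± 0.10 (SE) with hlOSM.

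Cyp26b1, which breaks down retinoic acid, was higher with both oncostatin M proteins. Its normalized counts were 5, 4 and 1 in PBS, 3, 4 and 6 with mLIF, 81, 82 and 121 under mOSM, and 69, 67 and 116 under hlOSM. The differences from PBS were 4.59 ± 0.32 (SE) on the log2 scale with mOSM and 4.39 ± 0.32 (SE) with hlOSM, over PBS values of 1 to 5, and the mLIF libraries overlapped with PBS. Cyp26a1, the other main enzyme of breakdown, did not pass the filter, with between 0 and 8 normalized counts in the 12 libraries.

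**Figure D4:**
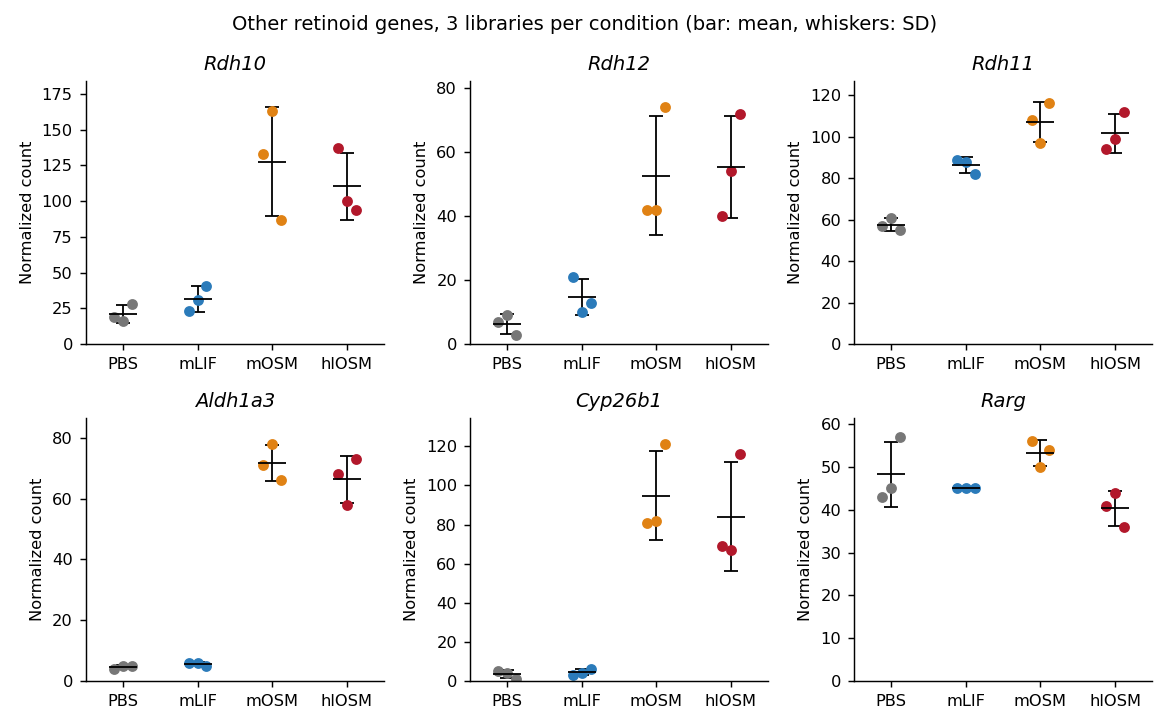
Normalized count of 6 further retinoid genes in the 12 libraries (vertical axes, linear and starting at 0) by condition, with 3 points per condition, a bar at their mean and whiskers of 1 SD. Aldh1a3 and Cyp26b1 lie at 6 or less in PBS and mLIF and at 58 or more with mOSM and hlOSM, and Rdh11 is also higher with mLIF.

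Of the genes known to respond to retinoic acid, 4 of 12 were raised and 4 were lowered by mOSM, and 3 were raised and 4 were lowered by hlOSM. These are 33.3% and 33.3% of the list under mOSM, where 15.4% of all genes were raised and 15.8% lowered, and 25% and 33.3% under hlOSM, where the shares of all genes were 18.2% and 19.8%. Rarres2, which encodes chemerin, rose from between 5 and 9 normalized counts in PBS to between 20 and 36 with mOSM and between 13 and 26 with hlOSM, by 1.76 ± 0.28 (SE) and 1.31 ± 0.28 (SE) on the log2 scale. Tgm2, which encodes transglutaminase 2, had normalized counts of 780, 700 and 646 in PBS, 1012, 1080 and 1169 with mOSM, and 1037, 1148 and 1214 with hlOSM, and rose by 0.62 ± 0.07 (SE) and 0.68 ± 0.07 (SE). Ccnd1, which encodes cyclin D1 and is widely regulated, fell from between 278 and 304 in PBS to between 77 and 104 with the oncostatin M proteins, by 1.72 ± 0.09 (SE) with mOSM and 1.65 ± 0.09 (SE) with hlOSM. The list did not move one way as a whole, and the median log2 difference of the 12 genes was 0.05 with mOSM and 0.02 with hlOSM. The genes were listed without the direction in which retinoic acid moves each. The median thus does not say whether a response to retinoic acid changed.

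Among the 11 partner receptors of RXR, Ppard was raised by both oncostatin M proteins. Pparg, Nr2f2, Nr4a1 and Thra were lowered by both, and Ppara was lowered by mOSM as well. Those lowered were 45.5% under mOSM and 36.4% under hlOSM, where 15.8% and 19.8% of all genes were lowered. Those raised, with Vdr counted, were 18.2% under each, where 15.4% and 18.2% of all genes were raised. Pparg, the receptor of fat cell formation, fell by 0.58 ± 0.13 (SE) on the log2 scale with mOSM and 0.66 ± 0.13 (SE) with hlOSM, from between 61 and 72 normalized counts in PBS to between 41 and 48. Nr2f2 fell by 0.54 ± 0.10 (SE) and 0.55 ± 0.10 (SE), and Nr4a1, an early response gene, by 0.47 ± 0.12 (SE) and 0.69 ± 0.12 (SE). Of the 11 coregulators, 1 was raised and 2 were lowered by mOSM, and 1 was raised and 5 were lowered by hlOSM, among them the corepressor gene Ncor1 with both. The coregulators lowered were thus 18.2% under mOSM and 45.5% under hlOSM, where 15.8% and 19.8% of all genes were lowered, and those raised were 9.09% under each, where 15.4% and 18.2% of all genes were raised. Dhrs7c, a short-chain dehydrogenase of muscle, fell by 0.56 ± 0.10 (SE) with mOSM and 0.57 ± 0.10 (SE) with hlOSM, and Ces1d, a carboxylesterase, by 0.44 ± 0.10 (SE) and 0.84 ± 0.10 (SE). Rdh5, of whose exonic bases 25.6% are overlapped by Bloc1s1 on the same strand, differed from PBS by 0.74 ± 0.28 (SE) with mOSM and 1.39 ± 0.28 (SE) with hlOSM.

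The remaining receptors did not pass the threshold against PBS. Rarg had between 43 and 57 normalized counts in PBS, 45 in all 3 libraries with mLIF, between 50 and 56 under mOSM and between 36 and 44 under hlOSM. Rxrb had between 163 and 193 in PBS and between 153 and 190 in the other 9 libraries. Crabp2, Rbp4 and Lrat did not pass the filter, with between 4 and 11, 1 and 3, and 0 and 2 normalized counts, and Stra6 was not analysed here. Aldh1a7, a near-identical neighbour of Aldh1a1 at chr19:20692953-20727562, had between 0 and 2 normalized counts, which is uncertain because reads that align to several places were excluded.

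With mLIF, limma called 6 of the 57 genes as raised (10.5%) and 5 as lowered (8.77%), against 5.47% and 4.44% of all genes. Rdh12, counted among the 6, differed by 1.13 ± 0.31 (SE) on the log2 scale, given without a test. Its normalized counts were 21, 10 and 13 against 7, 9 and 3 in PBS, where every value is below the filter value of 10. It thus passed the filter only through treated libraries, which favours a rise. Rdh11 rose by 0.57 ± 0.10 (SE) with 89, 88 and 82 against 57, 61 and 55 (adjusted p from limma 0.00123), and Tgm2 rose by 0.36 ± 0.07 (SE) with 927, 862 and 928 against 780, 700 and 646 (adjusted p from limma 0.00248). Scarb1, a lipoprotein receptor that also takes up carotenoids, rose by 0.34 ± 0.09 (SE), while Dhrs7c fell by 0.38 ± 0.10 (SE) and Ces1d fell by 0.37 ± 0.10 (SE). Aldh1a3 and Cyp26b1 were not called, with log2 differences of 0.24 (95% interval −0.16 to 0.63) and 0.41 (−0.27 to 1.08). The 11 calls became 4 without PBS replicate 3, 5 without mLIF replicate 1 and 3 without mLIF replicate 3. Between hlOSM and mOSM none of the 57 genes was called by limma (0 of 57, and 5 at an unadjusted p under 0.05), and none in the interaction (0 of 57, and 11 at an unadjusted p under 0.05).

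**Figure D5:**
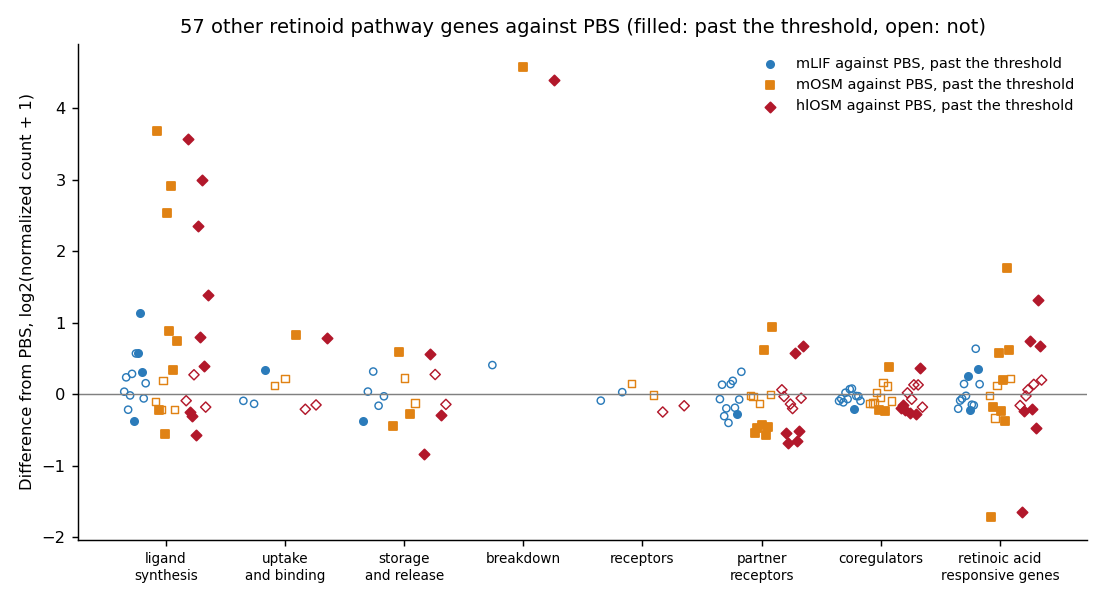
Difference from PBS of the 57 other retinoid pathway genes on the log2(normalized count + 1) scale (vertical axis) by their role (horizontal axis), with 1 point per gene and cytokine, filled where limma's adjusted p was under 0.05. Filled points include Aldh1a3, Cyp26b1, Rdh5, Vdr, Rdh12 and Rarres2 with mOSM and hlOSM, and Rdh12 with mLIF. The text gives these differences without a test. Cyp26b1 stands at 4.59 and 4.39 in the breakdown group, Aldh1a3 at 3.68 and 3.57 in ligand synthesis, both admitted by the filter only through mOSM and hlOSM, and both lie at 0.41 or less with mLIF.

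Markers of cell types moved with the same comparisons. The summed normalized counts of 8 cardiomyocyte markers, all of them present, lay between 48201 and 50117 in PBS, 41849 and 43641 with mLIF, 33853 and 37907 under mOSM, and 34690 and 37137 under hlOSM. Limma called 6 of the 8 as lowered by mLIF and 7 by each of mOSM and hlOSM, where 4.44%, 15.8% and 19.8% of all genes were lowered. Of the other markers, mLIF lowered Col1a2 of fibroblasts and Pecam1 of endothelium and raised Cd68 of leukocytes. The 9 fibroblast markers added up to between 2314 and 2543 in PBS, 2124 and 2270 with mLIF, 2464 and 2893 under mOSM, and 2315 and 2548 under hlOSM, and 2 were raised and 4 were lowered by mOSM, 3 raised and 6 lowered by hlOSM. RNA of fibroblast markers was thus present in every library. Across all genes tested, 15.4% were raised by mOSM and 18.2% by hlOSM. Within the fibroblast list Dcn, an extracellular matrix gene, rose by 1.09 with mOSM on the log2 scale. Pdgfra, a receptor gene of fibroblasts, fell by 0.52 with mOSM, and both were past the threshold.

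The 8 endothelial markers added up to between 1279 and 1336 in PBS, 1272 and 1338 with mLIF, 1595 and 1832 under mOSM, and 1634 and 1739 under hlOSM, with 5 raised and 1 lowered by mOSM and 6 raised and 1 lowered by hlOSM. Of all genes, mOSM raised 15.4% and lowered 15.8%, and hlOSM raised 18.2% and lowered 19.8%. The 7 markers of mural cells, the smooth muscle cells and pericytes of vessels, added up to between 956 and 1201 in PBS, 891 and 947 with mLIF, 677 and 729 under mOSM, and 617 and 637 under hlOSM, and 5 were lowered by mOSM and 6 by hlOSM. The 7 leukocyte markers added up to between 285 and 392 in all libraries. Of the 6 that passed the filter, each oncostatin M protein raised 1 (16.7%) and lowered 1 (16.7%), near the shares of all genes. Of the 7 epicardial and mesothelial markers, a cell type known for Aldh1a2, only Tbx18 passed the filter and fell by 0.41 with mOSM and hlOSM, whereas Upk3b had between 0 and 2 normalized counts, Lrrn4 between 1 and 5 and Wt1 between 2 and 11. The part of other cell types in the values of the 7 genes was not tested.

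The genes whose log2 values were most like those of Aldh1a1 over the 12 libraries, among 8669 genes with a mean of at least 50, were Adamtsl3 (Pearson's r = 0.996), Col15a1 (0.994) and Anxa1 (0.993). For Aldh1a2 they were Ugdh (0.991), Dcn (0.983) and Egfr (0.983), and for Rarb they were Gfra1 (0.978), Dffa (0.977) and Glrx (0.976). Rxra was most like Clasp1 (0.983), Tlk1 (0.980) and Cdnf (0.979), and Rxrg was most like Dock4 (0.923), Enc1 (0.919) and Gpbp1l1 (0.917). For Dhrs3 they were Srp54c (0.947), Tbx5 (0.934) and Abca8b (0.914), and for Rara 2510039O18Rik (0.947), Plekhf2 (0.905) and Sirt2 (0.900). The libraries fall into conditions, so that these values describe the differences between conditions as much as anything within them.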

How the data were processed

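RNA of cultured cardiomyocytes was sequenced from 3 libraries per condition. As the study's methods and the submitters' processing notes state, trimmed reads were aligned by the authors to the mm10 build (STAR 2.7.7a), and featureCounts 1.6.5 counted those touching exons of a single gene, leaving out reads with several alignments. The values deposited by the authors are scores on a normalized count scale, rounded to whole numbers, and the normalization method is not given in the sources used here. Totals per library lay between 2745748 and 2911891 and are not read numbers, so that the depth behind a value is unknown, no counting error was attached and no model of read counts was used.

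Differences were tested with limma 3.58.1 (R 4.3.3), whose variances were moderated along a trend with the mean level. Values were log2(normalized count + 1), with the 12 libraries in 1 fit and the 13184 genes that had at least 10 in at least 3 libraries. The log2 scale understates the change of low genes. Tests were two-sided, and a gene was called where its p, adjusted over all genes tested by the method of Benjamini and Hochberg, was under 0.05. The script was tested on simulated data. The table's mm10 coordinates were the same in GENCODE vM21 for all 7 genes.

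The 7 genes and all lists were chosen with earlier results of these data known. Beside the 7 genes, the text names the 6 called list genes with the largest difference with mLIF, the 5 largest rises and 5 largest falls called with mOSM and with hlOSM, 12 fixed list genes and the 3 genes most like each of the 7. Of the genes that this rule takes, 1 is not reported here. Further genes are named as members of counts. Each library was left out in turn, and other settings tried were pseudocounts of 0.1 and 5, a filter at 50 or none, rescaling by the trimmed mean of M-values, robust moderation, a fit on the 6 libraries of a comparison, and a block for the replicate number.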

Additional observations from a re-analysis of the deposited data

How the results depend on the processing

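Each difference of the 7 genes was computed under 20 alternatives (19 for the interaction, where a fit of the compared libraries alone is the same fit and was not run). The fall of Aldh1a1 with mLIF passed the threshold in 13 of 20, with an adjusted p from limma between 0.00521 and 0.213. It was −0.41 without the filter (adjusted p 0.0597, with more genes tested), −0.41 with the replicate block (adjusted p 0.0907), and between −0.48 and −0.32 when a library was left out, past the threshold in 7 of 12. The rise of Rarb with mLIF stayed between 0.41 and 0.48 on the log2 scale and past the threshold in 20 of 20. The number of other pathway genes called with mLIF, 11, was 7 with the replicate block, where Meis1, Meis2, Scarb1 and Thra were not called, and between 3 and 14 when a library was left out, and stayed between 25 and 33 with mOSM, 28 and 35 with hlOSM and at 0 for hlOSM against mOSM.

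Differences that were not called changed sign near 0 when a library was left out. The ranges over the libraries left out were −0.015 to 0.14 for Aldh1a2 and −0.11 to 0.038 for Dhrs3 with mLIF, and, for hlOSM against mOSM, −0.015 to 0.24 for Aldh1a1, −0.23 to 0.031 for Aldh1a2 and −0.17 to 0.035 for Rara. For the interaction they were −0.055 to 0.035 for Rxra, which was also 0.00024 with a pseudocount of 5 and 0.00057 with trimmed-mean rescaling, and −0.26 to 0.0027 for Rxrg. Rara with hlOSM against PBS, given without a test, ranged from −0.023 to 0.16. Of the values of the 7 genes in the tested comparisons, 391 kept their direction and their side of the threshold, 15 changed sign and 7 lost the call. The 280 untested values against PBS with mOSM and hlOSM moved by less than 1 SD.

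Replicate numbers in the titles are shared between conditions, but they did not pair the libraries. Deviations from the condition means, over 6626 genes, correlated between −0.52 and 0.02 among libraries with the same number, and 0 of 12 libraries correlated best with their own number. The replicate block left 26 calls among the 57 other genes with mOSM, 29 with hlOSM and 0 for hlOSM against mOSM. With 3 libraries per condition and unknown depth, differences of the size between hlOSM and mOSM seen here lay within the reach of the spread.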
